A study of Homo sapiens with 2 samples.

Results

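The intergenic spacer (IGS) is the stretch of the human rDNA repeat between the end of one 45S pre-rRNA unit and the promoter of the next. Its body was taken as the 10-base bins named IGS that start between 13.34 and 42.84 kb from the 45S transcription start, which are 2950 of the 4484 bins of the repeat. The bins were picked by position and not by signal, though earlier results of these data were known. The series examined the RNA that copurified with the Ku70/Ku80 complex by PAR-CLIP, in which a photoreactive nucleoside lets UV light crosslink a protein to the RNA it touches in living cells before the protein is purified. The cells were HEK293T, an established human embryonic kidney line, and per the labels they stably expressed either SFB-Ku80, a tagged Ku80, or the SFB empty vector, the vector control. Both groups received 0.1 mM 6SG (6-thioguanosine) overnight and 0.4 J/cm2 of UV at 365 nm, and both lysates went over streptavidin and then Flag resin. The methods call the Ku80 plasmid a vector for transient transfection, and the tagged Ku80 came in addition to the cells' own. Each group had 1 library, so differences have no replicate check, no test was made, and the intervals below cover counting error only. There were 29863974 read pairs in SFB empty vector, of which 21.5% were unmapped, and 22173753 in SFB-Ku80, of which 47.1% were unmapped.

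RNA polymerase I transcribes the 45S unit and stops at terminators that follow the 3′ETS, the external spacer at the 3′ end of the transcript. The spacer beyond is largely untranscribed in unstressed cells, although noncoding transcripts from parts of it are known, some of them induced by heat or acidosis. It also carries Alu elements, simple repeats and remains of a CDC27 pseudogene, and sequences of these kinds lie at many other places of the genome. In RefSeq on GRCh38.p14, the pseudogenes CDC27P9, CDC27P10 and CDC27P11 each follow a 28S gene on chromosome 21. The bins come from BLAST alignments to the rDNA repeat alone, so reads of the spacer and reads of like repeats elsewhere cannot be told apart.

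To ask whether the spacer was recovered together with pre-rRNA, the signal of the bins was summed and given per 1000000 read pairs of the library (RPM). A read adds 1 to each bin that it covers, so a sum is larger than the number of reads behind it. The spacer body gave a signal of 2102 RPM in the vector control and 431 in SFB-Ku80, a ratio of SFB-Ku80 to SFB empty vector of 0.205. Per read pair, its signal was 4.88 times as high in the vector control as in the Ku80 purification. The paper also weighted its rRNA share by the amount of total RNA purified, which was not used here. RPM therefore compares shares of the libraries and not amounts of RNA recovered. The bins of the transcribed 45S unit went the other way with a summed ratio of 2.29, which is 11.2 times that of the spacer body. These bins include those of mature rRNA. The ratio of the median 45S bins was 4.36, and the summed ratio of the 3′ETS was 4.87. The last 2 kb before the next promoter had a summed ratio of 10.2, or 49.95 times that of the body. The low ratio thus did not extend over the whole spacer, but this signal was uneven. The median bin of the last 2 kb held 2 reads in the vector control and 0.5 in SFB-Ku80, and the highest bin 44 and 398. The body made up 0.0763% of all rDNA signal in the vector control and 0.00683% in SFB-Ku80.

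The ratio of the spacer body was below 1 with each of the 5 library totals that were tried. It was 0.304 relative to the pairs that were mapped, and 0.639 relative to the pairs assigned uniquely to a feature. Such pairs made up 20.3% of SFB empty vector but 6.51% of SFB-Ku80. Low ratios were also common outside rDNA. Of the 17670 annotated features that reached 100 counts in the sum of the libraries, 49.8% were at least 2-fold lower in SFB-Ku80 and 8.29% at least 2-fold higher, and their median ratio of counts per read pair, with a pseudocount of 1, was 0.503 with quartiles of 0.249 and 1.06. The ratio of the spacer body lay below the lower quartile, on a scale of bin signal that is not the same as that of feature counts.

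The signal of the body was sparse. The median bin held 2 reads in the vector control and 0 in SFB-Ku80. No read lay on 1032 of the 2950 bins (34.98%) in the vector control and on 1881 (63.8%) in SFB-Ku80, and 889 bins were empty in both. A further 992 bins had reads in SFB empty vector only, at up to 49 reads, and 143 had reads in SFB-Ku80 only, at no more than 4. Stretches covered by a single read were at most 150 bases long in both libraries. The longest stretches without a read were 1170 bases in SFB empty vector, from 22321 to 23490 and again from 23551 to 24720, and 1760 bases in SFB-Ku80, from 30931 to 32690.

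Some count profiles recurred along the spacer. A bin was taken as part of a later copy if a segment of 200 bases around it, with a mean of at least 5 reads a bin, differed from an earlier segment by at most 10% of the reads over both libraries. There were 5 such stretches with 309 bins, which held 19.7% of the body signal in the vector control and 11.6% in SFB-Ku80. The longest, from 25081 to 26720, repeated the counts found 4430 to 4460 bases earlier. That from 29161 to 29630 repeated those 4540 bases earlier, and the stretches from 14281 to 14610 and from 14901 to 15350 repeated those near the start of the spacer. The stretch from 39261 to 39460 rested on a single segment. Whether a read with several hits was counted at each of them is not given in the sources used here, so sums over the body and its stretches may count some reads more than once, and later copies are no separate evidence. Without the 5 stretches the ratio of the body was 0.226.

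Counted bin by bin, with a pseudocount of 1 and at least 10 reads over both libraries, 790 bins of the body could be compared and the other 2160 could not. Of the 790, 769 (97.3%) were at least 2-fold lower in SFB-Ku80, 1 (0.127%) was at least 2-fold higher and 20 lay between. Over all rDNA bins that passed the same minimum, 35.4% were at least 2-fold lower and 46.4% at least 2-fold higher. Outside the spacer body these shares were 0.0722% and 72.8%. Most of the 790 passed the minimum through the reads of SFB empty vector, so low ratios were favoured by it, and with no minimum 1445 of the 2950 bins were at least 2-fold lower and 188 at least 2-fold higher. The median ratio of the 790 bins was 0.172, with quartiles of 0.0962 and 0.269. Without the later copies 554 of 572 bins were at least 2-fold lower. Neighbouring bins share reads and are not independent.

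**Figure D1:**
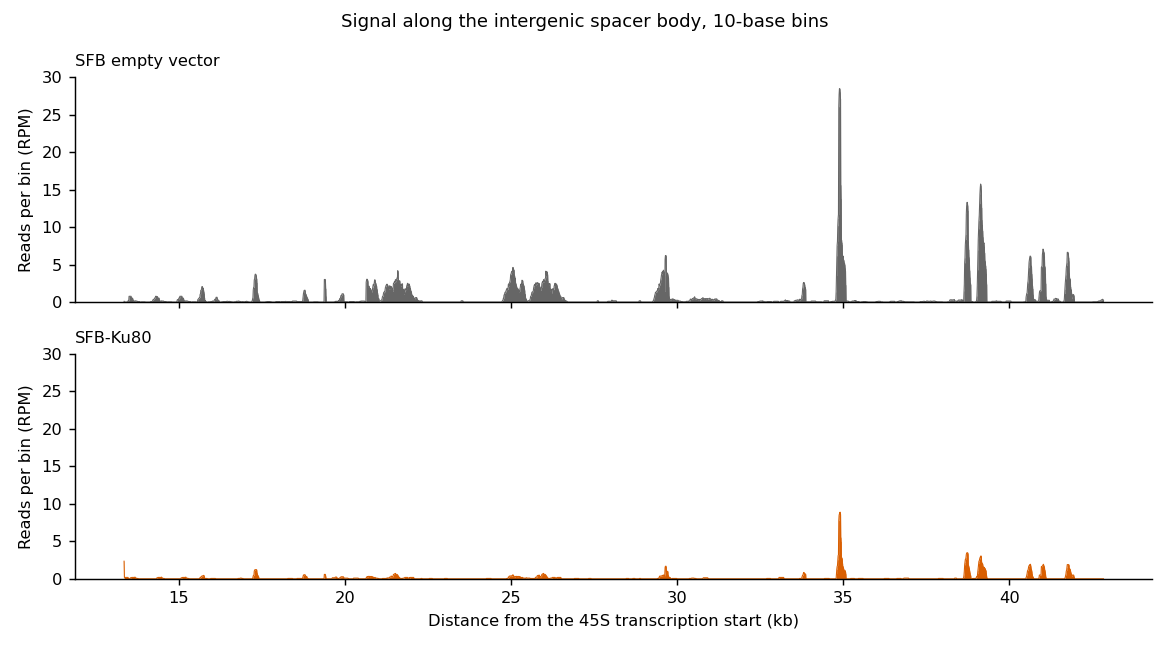
Reads per 10-base bin in RPM (vertical axis) against the distance from the 45S transcription start in kb (horizontal axis), for SFB empty vector (top) and SFB-Ku80 (bottom) on the same scale. Both libraries have their highest peak near 34.9 kb, with 850 reads at most in the vector control and 197 in SFB-Ku80, and the other peaks of SFB empty vector are also lower in SFB-Ku80, which is higher in the first bin at the left edge.

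The signal lay mostly in the same places in both libraries. Across the 2950 bins the reads of the libraries had a Pearson correlation of 0.946 and a Spearman correlation of 0.607, given as a description because neighbouring bins share reads and all bins share the same 2 libraries. The 30 highest bins held 22.3% of the body signal in the vector control and 29.5% in SFB-Ku80, and 24 bins were among the 30 highest of both. The highest bin of SFB empty vector, at 34881 to 34890, held 850 reads there and 192 in SFB-Ku80. The highest bin of SFB-Ku80, at 34901 to 34910, held 197 reads there and 837 in SFB empty vector.

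Blocks of high signal were defined as runs of bins with at least 5 times the mean bin of the body in that library, a limit of 106 reads in the vector control and 16.2 in SFB-Ku80. There were 11 blocks in the vector control and 10 in SFB-Ku80. Of these, 8 of the 11 (72.7%) overlapped a block of SFB-Ku80, and 8 of the 10 (80%) overlapped one of SFB empty vector. Merged, they formed 13 blocks of 1670 bases in all, or 5.66% of the body, and held 54.3% of its signal in the vector control and 67.4% in SFB-Ku80. The ratio was 0.254 inside the blocks and 0.146 outside them.

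The largest block, from 34801 to 35070, took 15.6% of the body signal in the vector control and 22.5% in SFB-Ku80. Its highest bin, at 34891 to 34900, held 850 reads in SFB empty vector, or 28.5 RPM (95% exact Poisson interval 26.6 to 30.4), and 196 in SFB-Ku80, or 8.84 (7.65 to 10.2). The ratio was 0.311, with an exact counting interval of 0.265 to 0.363. This block was high in both libraries and, per read pair, lower in SFB-Ku80 by more than counting error. The ratio of its summed signal was 0.296, but 0.923 with pairs assigned uniquely to a feature as the total.

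The neighbouring blocks from 38641 to 38820 and from 39041 to 39310 came next. The highest bin of the former held 397 reads in the vector control and 77 in SFB-Ku80, a ratio of 0.261 (0.202 to 0.334). That of the latter held 470 and 67 reads, a ratio of 0.192 (0.146 to 0.248). Their intervals overlap, and a difference between the blocks was not tested. The ratios of their summed signal, which have no interval, were 0.280 and 0.198. The interval of the block from 39041 to 39310 lies below that of the largest block.

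Beyond 40 kb stood 3 smaller blocks, from 40541 to 40680, from 40961 to 41090 and from 41701 to 41860. Their highest bins held 183, 211 and 198 reads in SFB empty vector. In SFB-Ku80 the same bins held 43, 41 and 42 reads. The ratios were 0.316, 0.262 and 0.286, near that of the largest block and with intervals that overlap its interval.

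**Figure D2:**
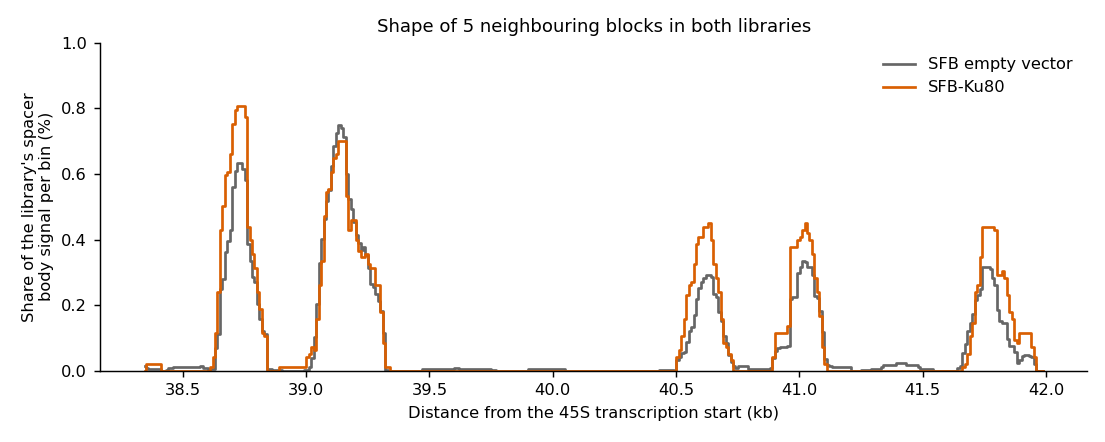
Share of the spacer body signal of each library in each 10-base bin, in percent (vertical axis), against the distance from the 45S transcription start in kb (horizontal axis), for the 5 blocks between 38641 and 41860. The outlines of SFB empty vector and SFB-Ku80 rise and fall at the same positions, and the block from 38641 to 38820 takes 7.10% of the body signal in the vector control and 9.71% in SFB-Ku80.

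Some blocks in the middle of the spacer had lower ratios still. The blocks from 21581 to 21600, from 24981 to 25100 and from 26041 to 26100 passed the limit in SFB empty vector only, which favours low ratios. Their highest bins held 125, 138 and 123 reads in SFB empty vector against 11, 12 and 11 in SFB-Ku80, with ratios of 0.119, 0.117 and 0.120. The upper ends of their counting intervals were 0.219, 0.211 and 0.223. The lower end for the largest block, which passed in both libraries, was 0.265. The intervals take no account of this selection, so they give no separate evidence of a difference. The blocks from 21581 and from 26041 lie 4460 bases apart in a recurring profile and have nearly the same counts, so they may rest on the same reads and are not separate observations. The block from 29521 to 29720 had a ratio of 0.189 for its summed signal. Its first part repeats the profile from 24621 to 25090, which overlaps the block from 24981. Beyond that part lies its highest bin, at 29641 to 29650, with 185 and 37 reads. That bin had a ratio of 0.269 (0.184 to 0.385), an interval that overlaps those of the blocks above. On the other side, the blocks from 17261 to 17350 and from 33801 to 33820 had ratios of 0.328 (0.207 to 0.503) and 0.294 (0.163 to 0.501) in their highest bins. The latter passed the limit in SFB-Ku80 only, which favours a high ratio.

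**Figure D3:**
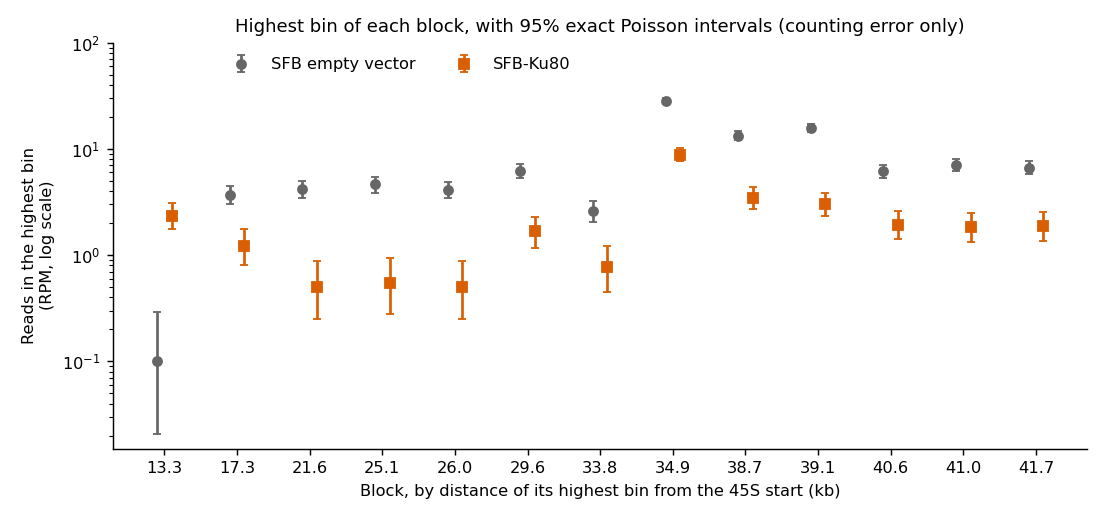
Reads in RPM in the highest bin of each of the 13 blocks (vertical axis, log scale) in order of distance from the 45S start in kb (horizontal axis), with 95% exact Poisson intervals for counting error as bars. SFB-Ku80 lies below SFB empty vector in every block but the first, where it has 2.35 against 0.100 RPM.

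Windows of 1000 bases sum the same bins as the blocks, so they are no second readout. Of the 30 windows, 27 had a summed signal of at least 100 over both libraries, and all 27 had a ratio below 0.5. With pairs assigned uniquely to a feature as the total, which multiplies every ratio by 3.12, 22 of the 27 were below 1 and 5 above it. The ratios ran from 0 to 0.419 with a median of 0.224. The 9 windows with enough signal between 20341 and 31340, a stretch chosen after the values had been seen, had ratios from 0.0709 to 0.178. Of the 18 other windows, 14 were above 0.178. Those from 15341, 37341, 39341 and 42341 were as low as the stretch, at 0.170, 0.0697, 0 and 0. Summed over the stretch the ratio was 0.112, against 0.266 for the rest of the body, and the stretch held 39.4% of the body signal in the vector control and 21.5% in SFB-Ku80. The longest recurring profile lies within it. Without later copies the ratios were 0.118 and 0.266, and the stretch held 27.6% of the signal left in the vector control and 14.5% of that in SFB-Ku80.

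The windows with the most signal were mostly the same in both libraries. In SFB empty vector they began at 38341, 34341, 25341, 40341 and 21341, and in SFB-Ku80 at 34341, 38341, 40341, 41341 and 25341. The window at 38341 had a signal of 423 RPM in the vector control and 96.4 in SFB-Ku80. The window at 34341 had 342 and 99.7. These windows hold the blocks described above, and together they took 36.4% of the body signal in the vector control and 45.5% in SFB-Ku80.

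The highest ratios were in windows with little signal, as were most of the lowest. The window from 36341 to 37340 had the highest, 0.419, from 5.06 RPM in the vector control and 2.12 in SFB-Ku80. The next were the first window of the body at 0.411, the window from 32341 at 0.391, that from 19341 at 0.361 and that from 18341 at 0.336. With pairs assigned uniquely to a feature as the total these 5 turned to values above 1, between 1.05 and 1.31. At the other end, the windows from 39341 and from 42341 had signals of 150 and 125 in SFB empty vector and none in SFB-Ku80. The lowest ratios with signal in both libraries were 0.0697 from 37341, 0.0709 from 27341 and 0.0798 from 20341.

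Several spacer transcripts and common ChIP amplicons are named by their distance in kb from the transcription start, and the windows that hold these distances were examined as a fixed set. The rDNA sequence behind the bins is not given in the sources used here, so a window need not hold the transcript or amplicon of that name. The window at 16 kb had a signal of 33.2 RPM in the vector control and 5.64 in SFB-Ku80, and the window at 22 kb had 160 and 18.4. These distances give their names to transcripts that are induced by heat shock in other cells. The window at 28 kb, a distance that names a transcript induced by acidosis, had 4.45 and 0.316. The windows at 18 and 20 kb had 12.0 and 29.0 in SFB empty vector and 3.34 and 10.5 in SFB-Ku80. Those at 33 and 38 kb had 8.30 and 9.71 in SFB empty vector against 3.25 and 0.676. All 7 windows were lower in SFB-Ku80, as were the other 20 windows with enough signal. Relative to pairs assigned uniquely to a feature, the windows at 20 and 33 kb were above 1.

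**Figure D4:**
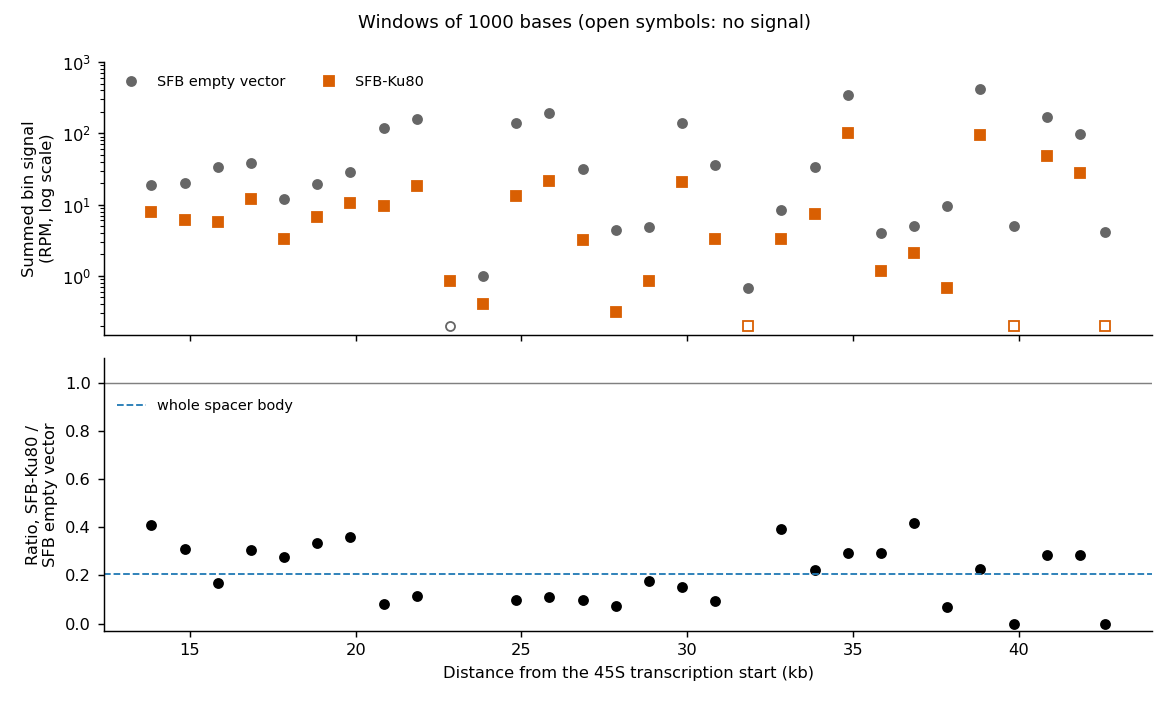
Summed bin signal in RPM (top, log scale) and the ratio of SFB-Ku80 to SFB empty vector (bottom) in windows of 1000 bases against the distance from the 45S transcription start in kb. All 27 ratios lie below 0.5, and the dashed line marks the 0.205 of the whole body. The plotted windows between 20341 and 31340 lie below that line, as do those from 15341, 37341, 39341 and 42341.

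At the border with the 3′ETS SFB-Ku80 was higher than SFB empty vector. In the last bin of the 3′ETS, SFB-Ku80 had 216 reads and SFB empty vector 34. In the first bin of the spacer they had 52 and 3, or 2.35 and 0.100 RPM, a ratio of 23.3 (exact counting interval 7.56 to 117). This was the bin at least 2-fold higher among the 790. With no minimum and no pseudocount 261 bins of the body had a ratio above 1, but apart from the first bin none of them held more than 5 reads in SFB-Ku80. The window from 22341 to 23340, for instance, had a summed signal of 19 for SFB-Ku80 against 0 for the vector control. In the next bin SFB-Ku80 was down to 4 reads, which is 54-fold below the last bin of the 3′ETS, and it stayed at 4 reads in 12 bins up to base 13470. SFB empty vector had none from 13351 to 13460, and such a 0 allows up to 0.100 RPM at a floor of 3 reads. Both libraries thus fell to at most 4 reads a bin within 20 bases of the border.

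Signal of SFB empty vector began again behind this gap. It held 23 reads in the bins from 13491 to 13560, where SFB-Ku80 had 0 to 3. In the first window as a whole the signal was 19.0 RPM in the vector control and 7.80 in SFB-Ku80. Among the 790 bins with at least 10 reads, the others with a ratio above 1, at 13671, 14471 and 15201, lie at the same place of the recurring profile and each had 5 reads in both libraries, a ratio of 1.35 with an interval from 0.310 to 5.85. They could not be told from equal levels.

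**Figure D5:**
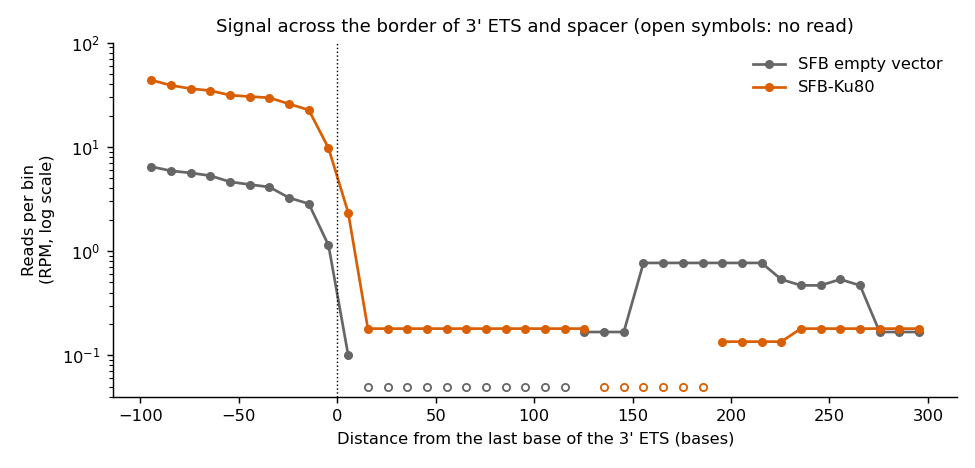
Reads per 10-base bin in RPM (vertical axis, log scale) against the distance from the last base of the 3′ETS in bases (horizontal axis), with open symbols for bins without a read. SFB-Ku80 falls from 9.74 in the last bin of the 3′ETS to 0.180 beyond the first spacer bin, while SFB empty vector falls from 1.14 to no read and returns to 0.770 further on.

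The genome alignment gave a separate readout of the same stretch. The annotation of CHM13 v1.1 holds 219 features with the length of a 45S unit on the plus strand of chromosomes 13, 14, 15, 21 and 22, and 214 spacers between neighbouring ones, with units 42524 to 49249 bases apart. Within these spacers, at the distances of the body, lie 18 annotated features. The 18 together had 80 counts in SFB empty vector against 24 in SFB-Ku80. Only 3 of the 18 had any count, and the other 15 were at 0 in both libraries. These features cover a small part of the spacers and multimapping reads were counted, so the numbers say little about the rest.

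The feature with the most counts was CHM13_G0035621, on the plus strand of chromosome 21 from 3129042 to 3130516, with 1187 bases in exons. It lies 17007 to 18481 bases from the start of its 45S unit, and at the same distances the bins hold the block from 17261 to 17350. The spacing of the units varies, so equal distances need not hold the same sequence. The counts of CHM13_G0035621 were 65 in SFB empty vector against 24 for SFB-Ku80. The ratio per read pair was 0.497 (exact counting interval 0.298 to 0.805), near the median of 0.503 over annotated features with at least 100 counts. The bins at the distances that this feature spans had a ratio of 0.304. In uniquely mapped pairs it had 10 in the vector control and 0 in SFB-Ku80. The other features with counts, LOFF_G0000486 and LOFF_G0000494 on chromosome 13, both 469 bases long, had 7 and 8 counts in SFB empty vector but 0 in SFB-Ku80. They begin 29278 and 33643 bases from the start of their 45S units. In distance they overlap the blocks from 29521 and from 33801, of which the latter passed the limit in SFB-Ku80 only. LOFF_G0000480 and LOFF_G0000638 overlap the largest block in distance, yet had 0 counts in both libraries.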

How the data were processed

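PAR-CLIP libraries of HEK293T cells with SFB empty vector or SFB-Ku80 were analysed, 1 per group. The authors aligned reads by BLAST to an rDNA repeat and deposited an unscaled signal, the number of reads over each 10-base bin. The BLAST version, its limits, the treatment of reads with several hits and the rDNA sequence are not given in the sources used here. The authors also deposited counts of read pairs per feature from STAR 2.7.6a, and counts per feature from featureCounts 2.0.2 on CHM13 v1.1, with pairs mapped at both ends, multimapping reads counted and no use of strand. Tool versions come from the submitters' processing notes and file headers.

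Bin signal was scaled to 1000000 read pairs (RPM). The number of read pairs of a library is the sum of STAR's unstranded column with its header lines. A bin absent from a table counted 0 (0 bins in SFB empty vector, 2 in SFB-Ku80, both outside the body). Counting intervals are exact Poisson intervals and, for ratios, exact binomial intervals on the split of the reads, both at 95%. No molecular identifiers are stated, and mates and PCR copies are not independent, so the intervals are too narrow. Features of 13300 to 13400 bases in 1 exon were taken as 45S units. Scripts (Python 3.11.15, numpy 2.4.6, scipy 1.17.1) were tested on simulated data. Regions were named by rule: the 5 windows with the most signal per library, the 5 with the highest and lowest ratios, the first window, 7 windows at fixed distances, the highest bins and the blocks, at most the 10 highest. All 13 blocks are given here instead. The bins, windows and rules were chosen with earlier results of these data known. Other totals, minimums, pseudocounts, folds, borders, window sizes and block limits were tried. No sequence of the spacer was analysed here.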

Additional observations from a re-analysis of the deposited data

How the results depend on the processing

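No paired analysis was possible because each group has 1 library, and no replicate could be left out. Leaving out later copies of recurring profiles, an alternative chosen after seeing the data, gave a signal ratio of the spacer body of 0.226. That ratio, 0.205 with all bins, was 0.304 with mapped pairs, 0.639 with pairs assigned uniquely to a feature, 0.168 with the featureCounts sum and 0.0896 with all rDNA signal as the total. It was 0.184 without the bins that were among the 30 highest of either library, 0.195 with borders moved inwards by 2000 bases and 0 for the median bin. For that reason the median bin could give no comparison with the 45S bins or with the last 2 kb. Bins at least 2-fold lower in SFB-Ku80 were 374 and bins at least 2-fold higher 8 with uniquely assigned pairs, against 769 and 1. Without a minimum they were 1445 and 188, and with at least 50 reads 434 were lower. Windows of 500 bases had a median ratio of 0.178.

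The 100 highest bins held 43.1% of the body signal in the vector control and 56.3% in SFB-Ku80. Bins with at most 2 reads numbered 1568 in SFB empty vector. At 3 times the mean bin there were 21 blocks in the vector control and 17 in SFB-Ku80, and at 10 times 3 in SFB empty vector. The features in the spacers had 10 uniquely mapped pairs in the vector control and 0 in SFB-Ku80. Without the highest bins the body made up 0.0575% of the rDNA signal in the vector control and 0.00462% in SFB-Ku80.

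Setting the windows and blocks against the other totals was chosen after seeing the data. With uniquely assigned pairs, the first window and those from 18341, 19341, 32341 and 36341 turned to 1.28, 1.05, 1.13, 1.22 and 1.31, and the blocks from 17261 and 40541 to 1.08 and 1.02. This follows from the total, which multiplies every ratio by 3.12. With the 3 other totals no window or block changed sides. A ratio resting on a few reads per bin is limited by depth.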
